A study of Mus musculus with 9 samples.

Results

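The lipid droplet and lipolysis set consisted of 10 genes chosen by name for their function, out of 51912 genes with an expression value in mouse liver. It held the perilipins Plin2, Plin4 and Plin5, the CIDE genes Cidea, Cideb and Cidec, the lipase gene Pnpla2 with its activator Abhd5 and its inhibitor G0s2, and the monoglyceride lipase gene Mgll. Hepatocytes store surplus fatty acids as triglycerides in lipid droplets, whose surface is coated by perilipins and whose fusion and growth depend on CIDE proteins. Stored triglyceride is hydrolysed stepwise: ATGL, the product of Pnpla2, removes the first fatty acid, CGI-58 from Abhd5 activates ATGL, the G0s2 protein inhibits it, and monoglyceride lipase from Mgll releases the last fatty acid. Several of these genes are known targets of the fatty acid sensor PPARα in fasted liver.

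RNA had been sequenced from the livers of 9 fasted mice, 5 that had received an antisense oligonucleotide (ASO) against apoC-III and 4 that had received a control ASO, both at 50 mg/kg/week for 8 weeks by intraperitoneal injection. All 9 mice carried the same Apoe-/-Ndst1 f/f Alb-Cre+ genotype on a C57Bl/6 background, so the controls also lacked apoE throughout the body and the heparan sulfate enzyme NDST1 in cells that express the albumin-driven Cre, which in liver are hepatocytes. The diet, sex and age of the sequenced mice are not given in the sources used here. ApoC-III is a liver-made inhibitor of triglyceride clearance, and the comparison asks whether lowering it altered the liver transcriptome.

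Levels are given as rescaled TPM: length-normalized TPM values of the nuclear protein-coding genes, set to the same total in each liver and divided by a median-of-ratios factor. On that scale Apoc3, the target of the ASO, lay between 334 and 622 in the apoC-III ASO livers and between 3169 and 4291 in the control livers. This was a decrease of 87.4% (p = 0.0159 in an exact permutation test, two-sided, which is as low as 5 against 4 livers allow), and every liver matched its label. The rescaling was used because 7SL RNA took 64.0% to 83.6% of the deposited TPM, and nuclear protein-coding genes held only 1.94% to 8.64%. The liver with the highest 7SL share was not the one with the lowest protein-coding share. Control liver 4 had the lowest protein-coding share and the fewest genes above 0, 17992 against 18344 to 20928 in the other 8 livers. ApoC-III ASO liver 5 had the next lowest values of both, with a protein-coding share of 3.04%. Both livers were also the highest of their group for Plin4, Plin5, Cidec, Pnpla2 and G0s2. The part of their low protein-coding share of TPM in those levels was not tested.

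Plin4 (chr17:56100591-56109803, minus strand) and Plin5 (chr17:56111601-56117596, minus strand) lie head to tail 1797 bp apart with no protein-coding gene between them, while Plin3, the next perilipin gene on that chromosome, lies another 159879 bp away with 7 protein-coding genes between. The bases just upstream of Plin4, Plin5, Pnpla2 (chr7:141455198-141460743, plus strand) and Mgll (chr6:88724412-88828360, plus strand) are shown. The first pair are neighbors with the closest course over the livers, and the second pair form a ratio whose groups did not overlap. G0s2, whose ratio to Pnpla2 also had groups without overlap, is not shown, and its window held no match to the motifs searched. The printed bases are those up to 250 before the RefSeq start that lie outside the annotated gene (GRCm38.p6). They lie at chr17:56109804-56110032, chr17:56117597-56117798, chr7:141454938-141455187 and chr6:88724162-88724411, each read 5′ to 3′ on the strand of its gene. Capitals mark a match to AGGTCA, the core motif of nuclear receptors such as PPARα and RXR, or to CACGTG, the E-box bound by the clock factors BMAL1 and CLOCK.
Plin4: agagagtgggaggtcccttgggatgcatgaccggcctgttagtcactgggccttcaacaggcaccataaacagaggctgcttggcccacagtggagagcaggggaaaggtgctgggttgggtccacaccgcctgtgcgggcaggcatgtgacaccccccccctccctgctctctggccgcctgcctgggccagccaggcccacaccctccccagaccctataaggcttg
Plin5: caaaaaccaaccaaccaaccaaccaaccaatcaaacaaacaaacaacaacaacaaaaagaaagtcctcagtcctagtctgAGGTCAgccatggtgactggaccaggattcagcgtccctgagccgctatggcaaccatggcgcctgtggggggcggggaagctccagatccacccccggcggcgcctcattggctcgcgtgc
Pnpla2: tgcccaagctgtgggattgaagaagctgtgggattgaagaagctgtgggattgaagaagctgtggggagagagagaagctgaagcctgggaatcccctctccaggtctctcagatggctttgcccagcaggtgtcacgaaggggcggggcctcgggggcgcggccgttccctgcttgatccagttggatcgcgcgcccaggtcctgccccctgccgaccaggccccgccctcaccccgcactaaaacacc
Mgll: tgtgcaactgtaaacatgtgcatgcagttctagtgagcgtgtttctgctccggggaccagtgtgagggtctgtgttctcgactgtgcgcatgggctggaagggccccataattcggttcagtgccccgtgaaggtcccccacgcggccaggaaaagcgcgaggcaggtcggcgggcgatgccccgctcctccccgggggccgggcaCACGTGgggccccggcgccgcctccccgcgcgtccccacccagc

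The promoter of Cidea was left out of the search. Over the RefSeq promoters of the other 9 members, 12 windows of 250 bases in all, AGGTCA on either strand occurred in 3 windows. It was held by 14.0% of the 32851 promoters in the annotation. These matches lay 218 bases before the start of Plin2, 170 before that of Plin5 and 69 before that of Abhd5. CACGTG occurred in 1 window, that of Mgll 44 bases before its start, against 6.02% of all promoters. The Mgll window also overlaps Gm26588, a long noncoding RNA gene. The direct repeat AGGTCANAGGTCA, which itself contains AGGTCA, and the D-box TTANGTAA bound by DBP were in none of the 12 windows, against 0.0335% and 2.06% of all promoters. These are matches of letters only.

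None of the 10 members met the criterion for a changed gene, which was an adjusted p under 0.05 in limma with the Benjamini-Hochberg method and a change over 1.5-fold. Of the 11968 genes tested, 0.0167% met it, namely Apoc3 and Anpep, both lower with the apoC-III ASO. The study's own test of read counts with DESeq2 reported more changed genes at these thresholds, in both directions. Of the members, 9 reached the minimum mean of 1 rescaled TPM and were tested, and Cidea was listed at 0 in every liver. Estimates were above 0 for Cideb, Pnpla2 and Abhd5 and below 0 for the other 6, against 49.9% of all tested genes above 0. No tested member had an unadjusted p under 0.05, against 5.57% of all genes, and no member's groups were free of overlap, against 1.83%. Plin2, G0s2 and Mgll had estimates past 1.5-fold, all lower, as had 11.7% of all genes in either direction. The median log2 difference was -0.016 over the 9 members and -0.0013 over all genes tested. On the TPM as deposited 6 members were tested, and on median-of-ratios scaling of all genes again 6. No member was called or had an unadjusted p under 0.05 on either scale, where 0.223% and 2.01% of all genes did on the first and 0.0451% and 5.52% on the second. On the first scale Apoc3 itself was not called, with a log2 difference of -2.62 (adjusted p = 0.104, limma). The absence of a called member there therefore says little. The spread was wide: the median standard error of a member's log2 difference was 0.45, against 0.29 over all genes. These were whole livers, so fewer cells of a type and less RNA per cell cannot be told apart.

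**Figure D1:**
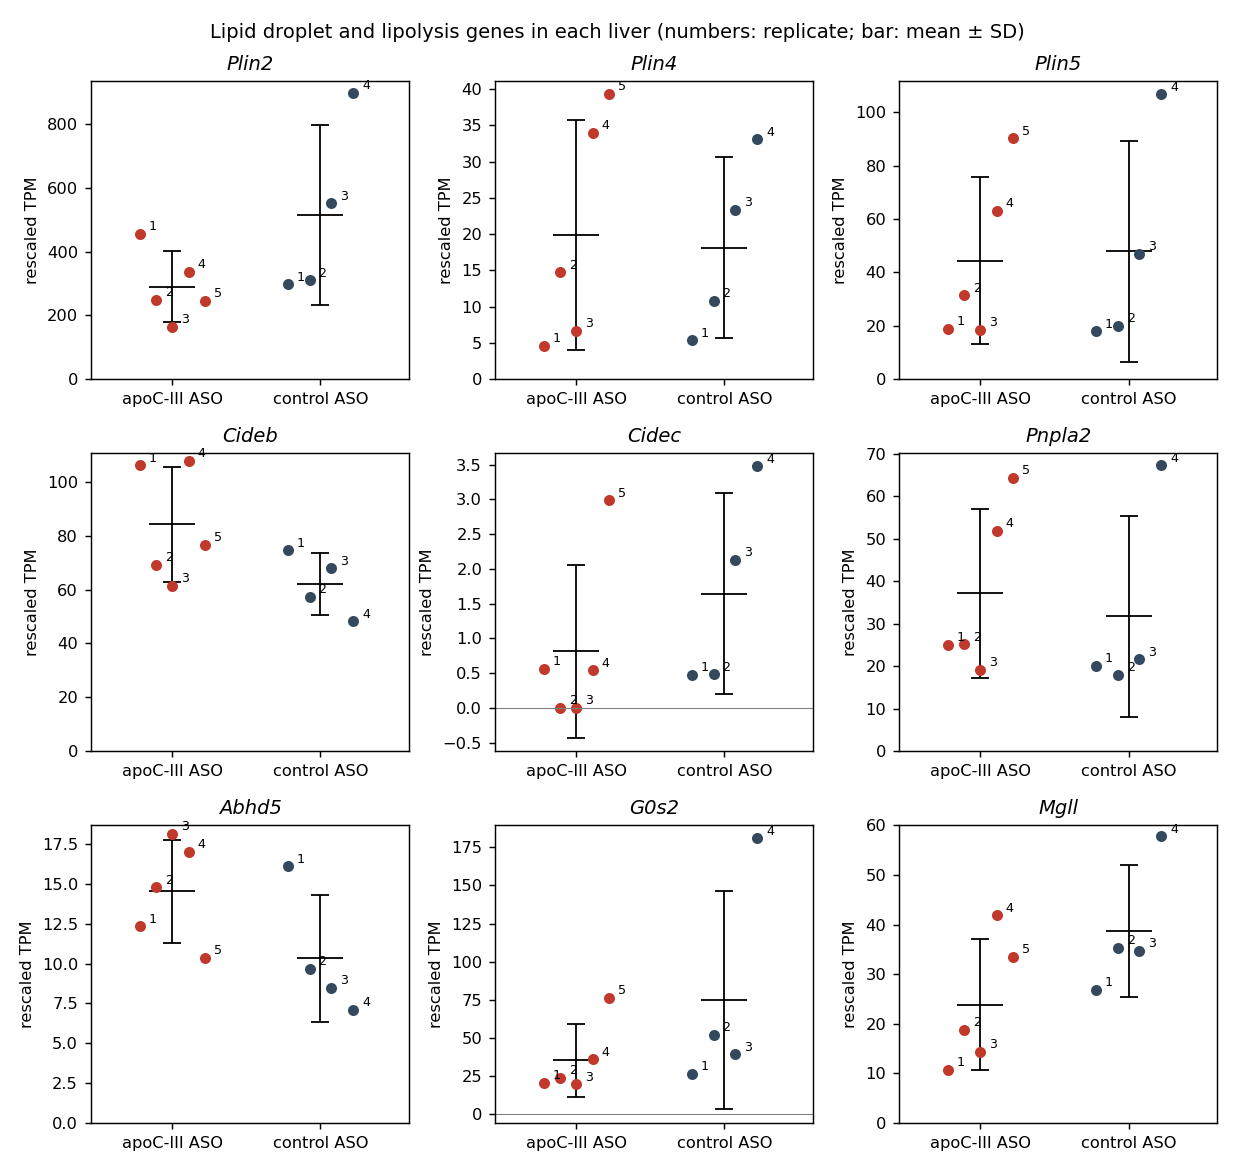
Rescaled TPM of each member in each liver, one panel per gene, with points for the 5 apoC-III ASO and 4 control ASO livers and the mean with its SD. The groups overlap in every panel, and control liver 4 is the highest point for Plin2, Plin5, Cidec, Pnpla2, G0s2 and Mgll.

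Plin2 encodes perilipin 2, the main coat protein of hepatocyte lipid droplets, and was the most abundant member (chr4:86648386-86670060, minus strand). It measured 457, 248, 164, 337 and 245 rescaled TPM in the apoC-III ASO livers and 298, 310.3, 552 and 898 in the control livers. The upper controls, livers 3 and 4, lay above all treated livers, and the lower controls lay within the treated range. The means were 290.3 ± 111 (SD, n = 5) and 515 ± 281 (SD, n = 4), a log2 difference of -0.75 with a standard error of 0.38 and a 95% interval of -1.58 to 0.07. Without control liver 4 the difference was -0.43. Its unadjusted p was 0.0692 and its adjusted p was 0.883 (limma).

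Plin5 encodes perilipin 5, a coat protein of oxidative tissues that links droplets to mitochondria. It measured 19.0, 31.5, 18.5, 63.1 and 90.1 rescaled TPM with the apoC-III ASO and 18.0, 19.9, 47.0 and 107 with the control ASO. Both groups ran from a low value near 18 to a high value several times above it, so the livers differed far more within a group than between groups. The log2 difference was -0.016 with a standard error of 0.59 and a 95% interval of -1.30 to 1.27 (adjusted p = 0.998, limma).

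Plin4 encodes perilipin 4, which is abundant in adipose tissue and coats nascent droplets. Its levels were 4.64, 14.8, 6.66, 34.0 and 39.3 rescaled TPM in the apoC-III ASO livers and 5.37, 10.8, 23.4 and 33.1 in the controls. Treated livers 4 and 5 and control livers 3 and 4 were high, the same 4 livers as for Plin5. The log2 difference was -0.0080 with a standard error of 0.65 and a 95% interval of -1.42 to 1.40 (adjusted p = 0.998, limma). For both Plin4 and Plin5 the sign of this difference changed with the scaling and with the livers included.

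Among the CIDE genes, only Cideb was expressed at more than a few rescaled TPM. Cideb (chr14:55754050-55758458, minus strand), the CIDE gene of normal hepatocytes with a role in VLDL lipidation, measured 106, 69.2, 61.4, 108 and 76.7 rescaled TPM with the apoC-III ASO and 74.6, 57.4, 67.9 and 48.2 with the control ASO. Treated livers 1, 4 and 5 lay above every control, and treated livers 2 and 3 lay inside the control range. The means were 84.3 ± 21.5 (SD, n = 5) and 62.0 ± 11.6 (SD, n = 4), and the log2 difference was 0.42 with a standard error of 0.24 and a 95% interval of -0.10 to 0.94 (unadjusted p = 0.104, adjusted p = 0.900, limma). Cideb had the narrowest range of the tested members, 2.24-fold between its lowest and highest liver.

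Cidec, also known as Fsp27, is a fat-specific gene that enlarges droplets and becomes abundant in fatty liver (chr6:113424634-113435760, minus strand). It measured 0.561, 0, 0, 0.541 and 2.98 rescaled TPM in the apoC-III ASO livers and 0.481, 0.482, 2.14 and 3.47 in the controls. Its level was close to 0 in 6 of the 9 livers, and in the deposited TPM it did not exceed 0.113 in any liver. The log2 difference of rescaled TPM plus 1 was -0.58 with a standard error of 0.48 and a 95% interval of -1.63 to 0.46 (adjusted p = 0.918, limma). It rests on the added constant, being -0.84 with 0.5 and -1.61 with 0.1. Cidea (chr18:67343604-67367785, plus strand), the CIDE gene of brown fat that is also induced in fatty liver, was listed at 0 in all 9 livers. Since TPM keeps no read depth, no upper limit can be given for that 0.

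Pnpla2 and its partners form the next group. Pnpla2 measured 25.0, 25.2, 19.2, 51.9 and 64.4 rescaled TPM with the apoC-III ASO and 20.1, 18.0, 21.6 and 67.3 with the control ASO. The livers fell into low values of 18.0 to 25.2 and high values of 51.9 to 67.3, and both groups had livers at each level. The log2 difference was 0.29 with a standard error of 0.45 and a 95% interval of -0.68 to 1.27 (adjusted p = 0.966, limma). It was 0.72 without control liver 4 and 0.066 without treated liver 5.

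Abhd5, the gene of the ATGL activator CGI-58 (chr9:122351608-122381524, plus strand), was low and comparatively even. It measured 12.3, 14.8, 18.1, 17.0 and 10.4 rescaled TPM in the apoC-III ASO livers and 16.1, 9.66, 8.48 and 7.08 in the controls. All treated livers lay above control livers 2 to 4, and control liver 1 lay among the treated ones. The log2 difference was 0.49 with a standard error of 0.27 and a 95% interval of -0.09 to 1.07 (unadjusted p = 0.0920, adjusted p = 0.899, limma).

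G0s2, whose product binds and inhibits ATGL (chr1:193272161-193273217, minus strand), had the widest range of the members with a value above 0 in every liver, 9.37-fold. It measured 20.1, 23.4, 19.3, 35.7 and 76.2 rescaled TPM in the apoC-III ASO livers and 26.3, 51.9, 38.9 and 181 in the controls. Control liver 4 stood far above all others on this scale, whereas in the TPM as deposited the same liver was the lowest control, at 1.75 against 2.05 to 3.27 TPM. The log2 difference was -0.87 with a standard error of 0.54 and a 95% interval of -2.05 to 0.31 (unadjusted p = 0.135, adjusted p = 0.900, limma). Without control liver 4 it was -0.31.

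Mgll, whose product completes lipolysis by splitting monoglycerides, measured 10.7, 18.8, 14.3, 41.8 and 33.4 rescaled TPM with the apoC-III ASO and 26.9, 35.3, 34.7 and 57.8 with the control ASO. Treated livers 1 to 3 lay below every control, and treated livers 4 and 5 lay inside the control range. The means were 23.8 ± 13.3 (SD, n = 5) and 38.7 ± 13.3 (SD, n = 4), and the log2 difference was -0.79 with a standard error of 0.38 and a 95% interval of -1.63 to 0.05. It had the smallest unadjusted p of the members, 0.0630 (adjusted p = 0.883, limma).

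**Figure D2:**
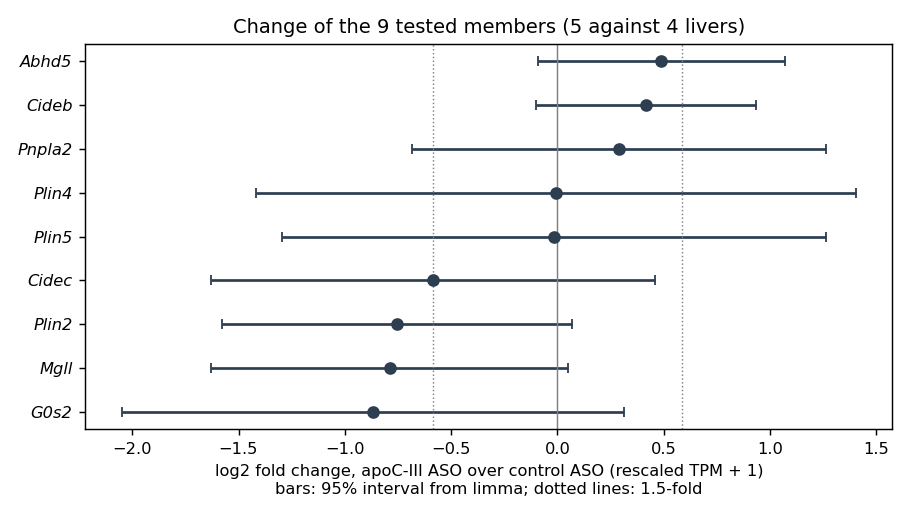
Log2 fold change of each tested member, apoC-III ASO over control ASO, with its 95% interval from limma on log2(rescaled TPM + 1). All 9 intervals include 0, and those of Plin4 and Plin5 reach beyond 1 in both directions.

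Ratios of members within a liver were compared because they depend on the scaling of livers only through the 0.1 TPM added to each value, and all ratios printed here include it. Of 5 ratios, 2 had an adjusted p under 0.05 between the groups (exact two-sided permutation test, Benjamini-Hochberg over the 5). The ratios were chosen with earlier results of these data known, so their p-values do not come from an independent test. How often ratios of other gene pairs separate the groups was not computed. The ratio of the inhibitor G0s2 to its target Pnpla2 was 0.816, 0.934, 1.01, 0.698 and 1.18 in the apoC-III ASO livers and 1.29, 2.74, 1.74 and 2.47 in the control livers. Every treated liver thus had a lower ratio than every control. The geometric mean ratio with the apoC-III ASO was 0.462 of that with the control ASO, a log2 difference of -1.11 with a standard error of 0.28 (exact p = 0.0159, adjusted p = 0.0397).

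The ratio of Mgll to Pnpla2, monoglyceride lipase to triglyceride lipase, was 0.460, 0.763, 0.770, 0.813 and 0.544 with the apoC-III ASO and 1.32, 1.88, 1.56 and 0.878 with the control ASO. The groups again did not overlap, although treated liver 4 and control liver 4 lay close together. The log2 difference was -1.05 with a standard error of 0.29, or 0.482 of the control ratio (exact p = 0.0159, adjusted p = 0.0397). With 1 TPM added in place of 0.1 the log2 differences shrank to -0.72 for G0s2 to Pnpla2 and -0.67 for Mgll to Pnpla2, and both still passed (adjusted exact p = 0.0397). Both ratios have Pnpla2 as denominator and so are not independent of each other. Each passed the adjustment only because both reached the smallest exact p that the livers allow. With 1 liver left out, the unadjusted exact p of both ratios was the smallest that the remaining livers allow, and the adjusted p was 0.0714 to 0.0893, so neither passed the threshold with 8 livers.

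The ratio of Abhd5, the activator, to Pnpla2 ran from 0.204 to 0.950 in the apoC-III ASO livers and from 0.225 to 0.815 in the control livers. Its log2 difference was 0.0013 with a standard error of 0.54 (exact p = 1), and its sign depended on which livers entered and on the constant, with 0.23 when none was added and -0.18 with 1 TPM. The ratio of Plin5 to Plin2 was 1.65-fold higher with the apoC-III ASO, with a range of 0.0444 to 0.376 against 0.0642 to 0.129 (adjusted exact p = 0.377), and its log2 difference of 0.72 became 1.14 without treated liver 1 and 0.37 without treated liver 5. The ratio of Cidec to Cideb, which rests on very low Cidec values, had a log2 difference of -0.95 with a standard error of 0.83 (adjusted exact p = 0.377), which became -0.27 without control liver 4.

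**Figure D3:**
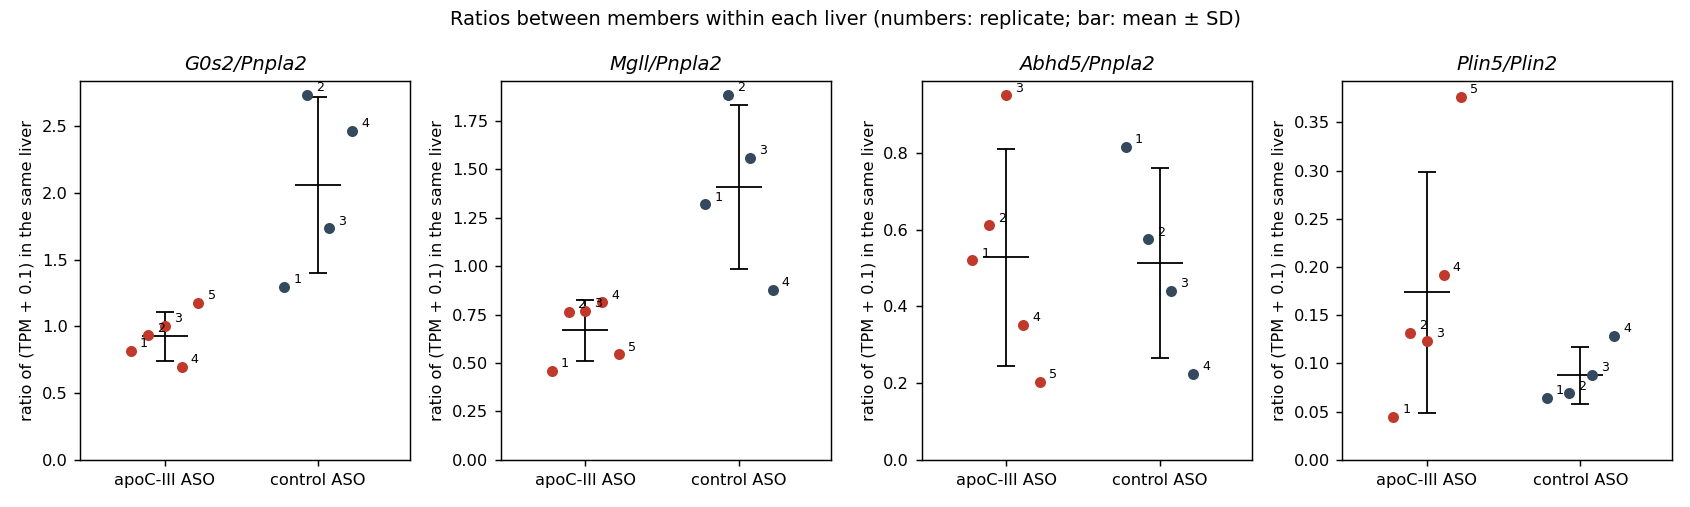
Ratios between members in each liver on a linear axis, computed from deposited TPM plus 0.1, for the 5 apoC-III ASO and 4 control ASO livers, with the arithmetic mean and SD. For G0s2/Pnpla2 and Mgll/Pnpla2 all treated livers lie below all controls, and for Abhd5/Pnpla2 and Plin5/Plin2 the groups overlap.

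Ordered by their mean rescaled TPM, a scale per transcript length, the members ran Plin2, Cideb, G0s2, Plin5, Pnpla2, Mgll, Plin4, Abhd5, Cidec and Cidea. Among neighbors in that order, Plin2 exceeded Cideb in 9 of 9 livers and Abhd5 exceeded Cidec in 9 of 9. Cideb exceeded G0s2 in 8 livers and Mgll exceeded Plin4 in 8. The order of G0s2 and Plin5 held in 5 livers, that of Plin4 and Abhd5 in 5, that of Plin5 and Pnpla2 in 6 and that of Pnpla2 and Mgll in 6, so these neighbors were not separated beyond their spread.

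Some members followed a similar course over the livers and others did not. Plin5, Pnpla2 and Mgll were below their own mean in treated livers 1 to 3 and above it in treated livers 4 and 5 and control liver 4. Plin5 and Pnpla2 were also below it in control livers 1 and 2. Likeness was measured as the root mean square difference of mean-centred log2 values over the 9 livers, where a smaller value means a closer course. Among the 36 pairs of tested members, the neighbors Plin4 and Plin5 were closest at 0.34, followed by Cideb with Abhd5 at 0.39 and Plin5 with Pnpla2 at 0.42. The farthest pair was Abhd5 and G0s2 at 1.32. Cideb and Abhd5 ran opposite to the rest in control liver 4, where both had their lowest value.

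Arntl and Dbp, 2 genes of the circadian clock, differed among the treated livers. Arntl, which encodes BMAL1, was 17.7, 11.1 and 30.9 rescaled TPM in treated livers 1 to 3, 0.740 and 2.74 in treated livers 4 and 5, and 0.320 to 2.46 in the controls. Dbp, a clock output that peaks when Arntl is low, was 2.92, 22.2 and 2.70 in treated livers 1 to 3, 152 and 97.7 in treated livers 4 and 5, and 68.2 to 103 in the controls. Ppara, which encodes PPARα, was 87.0, 129, 132, 244 and 244 with the apoC-III ASO and 134, 176, 205 and 241 with the control ASO. Arntl, Dbp and Ppara were chosen after their values had been seen. A clock score, log2(Arntl + 1) minus log2(Dbp + 1), was added as a covariate after seeing the data. High Arntl occurred only in treated livers, so the score partly overlaps with the treatment and the fit cannot fully separate them. The log2 difference then became 1.0 for Plin4, 0.73 for Plin5, 0.82 for Pnpla2, 0.58 for Cideb, -0.44 for G0s2, -0.24 for Cidec and -0.14 for Mgll. It stayed at 0.49 for Abhd5 and was -0.74 for Plin2. Standard errors ran from 0.28 for Cideb to 0.65 for G0s2, and no member passed the test.

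**Figure D4:**
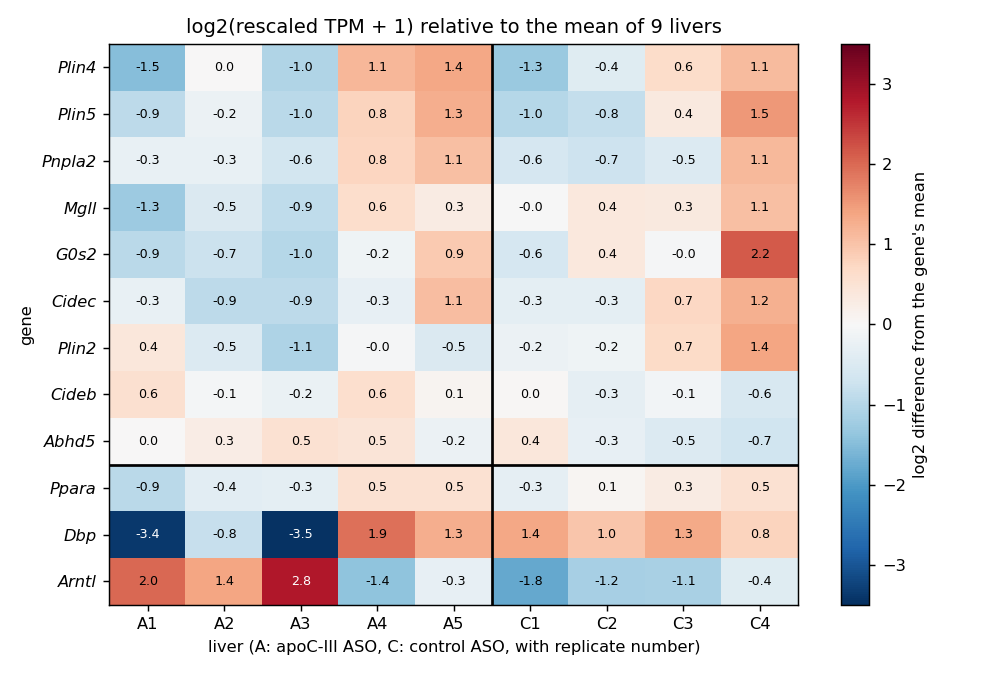
Log2(rescaled TPM + 1) of the tested members and of Ppara, Dbp and Arntl in each liver, relative to the mean of each gene over the 9 livers; A marks apoC-III ASO and C control ASO, with the replicate number. Treated livers 1 to 3 have high Arntl and low Dbp, and Plin5, Pnpla2, Mgll, G0s2 and Cidec are below their mean there. Control livers 1 and 2 have low Arntl and high Dbp, and Plin5 and Pnpla2 are below their mean there as well.

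Other genes of droplets and lipolysis did not pass the test either. Of 32 such genes, 31 were listed and 29 tested, with 9 estimates above 0, 20 below and none called, a median log2 difference of -0.14. Among all tested genes, 49.9% of estimates were above 0. Unadjusted p was under 0.05 for 2 of them, where 5.57% of all genes were. Ces1d, a carboxylesterase that hydrolyses stored triglyceride for VLDL assembly, had a log2 difference of -1.09 with a standard error of 0.43 (adjusted p = 0.873, limma). Mettl7b, a droplet-associated methyltransferase, had -0.55 with a standard error of 0.24 (adjusted p = 0.876, limma). Of 20 genes that encode known regulators of the members, 12 estimates were above 0 and 8 below, none had an unadjusted p under 0.05, and the smallest p-values were those of Nr1h2, which encodes LXRβ, with a log2 difference of 0.76, and of Hnf4a, the hepatocyte nuclear receptor gene, with 0.40.

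Marker lists were examined for other cells that express the same genes. Adipoq and Lep, which define adipocytes, were at 0 in all 9 livers, and the summed level of 10 adipocyte genes was 37.0 to 65.5 rescaled TPM with the apoC-III ASO and 44.0 to 51.1 with the control ASO. None of its 5 tested genes had an unadjusted p under 0.05, and the smallest belonged to Fabp4 and Lipe, with log2 differences of 0.62 and 0.44. Ucp1 and Cox8b, markers of brown fat, were at 0 in all livers, and the 5 brown adipocyte genes summed to 3.83 to 6.40 and 2.17 to 7.50. Of that list, Cox7a1 and Prdm16 were tested, with log2 differences of 1.18 (unadjusted p = 0.0033, adjusted p = 0.762, limma) and -0.56. Cox7a1, a mitochondrial respiratory gene, lay between 2.95 and 4.52 rescaled TPM with the apoC-III ASO and between 0 and 2.07 with the control ASO, so its groups did not overlap. Of all tested genes, 1.83% had groups free of overlap and 5.57% had an unadjusted p under 0.05. These levels are low, and the 0 is that of control liver 4, where 1 deposited TPM equals 103.7 rescaled TPM.

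Macrophage and Kupffer cell genes summed to 65.0 to 104.7 rescaled TPM with the apoC-III ASO and 59.7 to 105.9 with the control ASO, and 4 of the 7 tested had estimates above 0. Marco and Cd68, with the smallest p-values there, had log2 differences of 0.67 and 0.31. Stellate cells also store lipid in droplets. Their 10 genes summed to 136 to 167 with the apoC-III ASO and 154 to 287 with the control ASO, and 7 of the 9 tested had estimates below 0. An unadjusted p under 0.05 was found for 2, Lrat at -0.89 and Dcn at -0.57 on the log2 scale (adjusted p = 0.842 and 0.876, limma), and none was called. Of all tested genes, 49.9% had estimates above 0 and 5.57% had an unadjusted p under 0.05. The part of stellate cells in the levels of Plin2 and the other members was not tested. All 10 hepatocyte genes were expressed, with a sum of 27203 to 57845 and 37069 to 48027 rescaled TPM, and 8 had estimates below 0, with Serpina1c at -0.82 and Hnf4a at 0.40 having the smallest p-values and none called.

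**Figure D5:**
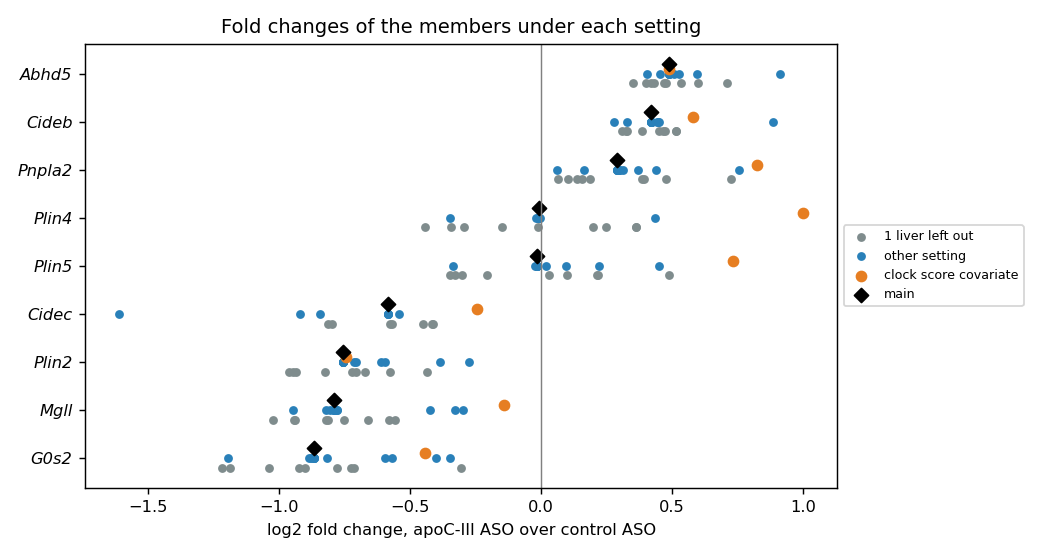
Log2 fold change of each tested member under the analysis reported (black), other processing settings (blue), a clock score covariate (orange) and with 1 liver left out (grey). Plin4 and Plin5 lie on both sides of 0, and each of the other 7 members stays on one side.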

How the data were processed

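RNA of 9 livers was sequenced as ribosomal RNA-depleted, stranded, single-end libraries. The authors deposited TPM per gene, and the submitters' processing notes name kallisto 0.43.1 and GRCm38, whereas the study's methods describe STAR, featureCounts and DESeq2, whose counts were not used here. TPM keeps no depth, so no counting interval was computed. Genes were matched by identifier to GENCODE M21 (GRCm38), 51719 of 51912. TPM of the 21857 nuclear protein-coding genes listed was rescaled to 1000000 per liver and divided by median-of-ratios factors. limma 3.58.1 in R 4.3.3 (lmFit, eBayes with trend) was run on log2(rescaled TPM + 1) for the 11968 genes with a mean of at least 1, comparing 5 with 4 livers without covariates, and p-values were adjusted over all of them with the Benjamini-Hochberg method. Fold changes are on that scale and understate changes of low genes. Ratios between members used deposited TPM + 0.1 and exact permutation tests. Python 3.11.15 was used for the rest, and the model code was tested on simulated data.

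The members, ratios and gene lists were chosen with earlier results of these data known, and the lists were written from general knowledge. The genes named are the 10 members, Apoc3, the 2 genes of each list with the smallest unadjusted p, and the 3 genes with the most similar profile for each of the 3 members with the widest range. Anpep is named as the other called gene, Plin3 and Gm26588 as neighbors on the genome, Adipoq, Lep, Ucp1 and Cox8b as list genes at 0 in every liver, and Arntl, Dbp and Ppara were chosen after their values were seen. Alternatives changed the scaling, the constant, the minimum, the variance model, the replicate block and the livers included. Whether the 9 mice shared litters or treatment days is not given in the sources used here, so p-values measure the spread between these livers. RefSeq promoter sequence was of GRCm38.p6.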

Additional observations from a re-analysis of the deposited data

Results flagged for a closer look

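Of 32 groups of livers examined, 4 held a liver far from the others of its group. For normally distributed values chance alone flags about 1 group in 20, but these values are not known to be so distributed. The groups share livers and scaling, and those of Cidea, at 0 in every liver, could not be flagged. Cidec was 2.98 rescaled TPM in apoC-III ASO liver 5, against 0 to 0.561 in the other 4. G0s2 was 76.2 in the same liver, against 19.3 to 35.7. In control liver 4, G0s2 was 181 against 26.3 to 51.9 in the other 3, and Pnpla2 was 67.3 against 18.0 to 21.6. These livers had the lowest shares of nuclear protein-coding TPM, 3.04% and 1.94%, so 1 deposited TPM equals 34.7 and 103.7 rescaled TPM in them, against 12.4 to 21.2 in the other 7. In deposited TPM, Pnpla2 was 0.649 in control liver 4, the lowest of all 9 livers.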

How the results depend on the processing

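No member was called under any of 24 alternatives, and 7 of the 9 tested members kept the sign of their difference wherever an alternative gave one. The log2 difference of Plin5 was 0.22 in TPM as deposited, 0.45 in protein-coding rescaling without factors, 0.018 after quantile normalization, 0.096 with array weights and 0.73 with the clock score covariate, and -0.35 to 0.49 with 1 liver left out. That of Plin4 was 0.43 without factors, 1.0 with the clock score and -0.44 to 0.36 with 1 liver left out. The median of all genes moved to 0.41 without factors and to 0.11 in TPM as deposited. Unadjusted p in limma was under 0.05 for 3 of 8 members without factors, where 1328 of 12051 genes had it. With the replicate block it was for 3 of 9 members and 933 of 11968 genes. With array weights these counts were 1 of 9 and 896 of 11968. With 1 liver left out the most was 4 of 9 members, without control liver 1, where 682 of 11972 genes had it. The cause of these changes was not tested.

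Against 0 genes called higher and 2 called lower, TPM as deposited gave 5 higher and 6 lower and median-of-ratios on all genes 1 and 1. The count called lower was 1 without factors, without a minimum, without the eBayes trend and with the clock score, and 1 to 3 with 1 liver left out, while 0 to 1 were called higher. In TPM as deposited the Apoc3 difference was -2.62 with an adjusted p of 0.104.

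The replicate numbers gave little sign of pairing the livers: correlations of deviations for numbers 1 to 4 were 0.067, 0.119, 0.028 and 0.190, and only number 4 matched its own number best. Such low values cannot decide whether the numbers carry a shared day or batch. With the replicate block 1 gene was called higher, and no member was called. The block gave -1.19 with a standard error of 0.32 for G0s2 and -0.95 with 0.23 for Mgll (unadjusted p = 0.0070 and 0.0037, adjusted p = 0.534 and 0.523, limma). Cidec had -0.92 with 0.38 (unadjusted p = 0.045, adjusted p = 0.632, limma). Over 4 within-number differences the ratio of G0s2 to Pnpla2 differed by -1.21 and that of Mgll to Pnpla2 by -0.99 (adjusted exact p = 0.208 for both, the unadjusted p being the smallest possible, 0.125). With 1 liver left out these ratios ranged from -1.32 to -0.96 and from -1.26 to -0.90. The Abhd5 to Pnpla2 ratio was -0.18 with a constant of 1 TPM and -0.35 to 0.30 with 1 liver left out. Without a constant Cidec to Cideb could not be computed, because 2 livers had Cidec at 0. Depth is unknown, so the precision of low values such as those of Cidec cannot be given.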

Other observations

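The genes most like the 3 widest-ranging members over the 9 livers were found among the genes tested outside the set of 10, by the root mean square difference of mean-centred log2 values. For Plin5 they were Sftpa1 at 0.25, Pex11a at 0.32 and Trpv1 at 0.37, where the median over all genes was 1.04. Pex11a, a peroxisome proliferation gene, measured 22.2, 18.0, 15.1, 50.6 and 61.9 rescaled TPM with the apoC-III ASO and 20.3, 22.2, 34.6 and 88.9 with the control ASO. For Plin4 they were Sftpa1 at 0.38, Slc37a4 at 0.44 and Rusc2 at 0.46, against a median of 1.13. Slc37a4, the glucose-6-phosphate transporter gene of gluconeogenesis, measured 64.3, 94.8, 50.2, 196 and 247 with the apoC-III ASO and 85.6, 123, 154 and 247 with the control ASO. For G0s2 they were Htra3 at 0.27, Gm44511 at 0.34 and Pmm1 at 0.37, against a median of 1.05, with a highest level among them of 15.6 rescaled TPM. All points share the 9 libraries and their scaling.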
